A study of Mus musculus with 6 samples.

Results

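The Trem receptors, the DAP12 and DAP10 adaptor chains and the proximal signalling enzymes below them were followed by their 7 genes, Trem1, Trem2, Trem3, Tyrobp, Hcst, Syk and Plcg2, out of 55487 genes listed in each library. They were chosen by name as the receptors, adaptors and first enzymes of one pathway, with earlier results of these data known. All 7 had a mean transcript abundance high enough to be tested. J774 is an immortalized mouse macrophage line. One group of cultures received control siRNA and the other received NCOA4 siRNA, both with liposomes, and each group held 3 libraries that the labels call biological replicates. NCOA4 is the cargo receptor that carries ferritin to the autophagosome, and its loss leaves iron stored in ferritin. Both groups share the cell line, the transfection and the stranded poly(A) library preparation, and the interval between transfection and RNA isolation is not stated for these libraries.

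Trem receptors are single-pass immunoglobulin-like proteins of myeloid cells whose short cytoplasmic tails do not signal. Each pairs in the membrane with DAP12, the product of Tyrobp, which carries an immunoreceptor tyrosine-based activation motif (ITAM). Src family kinases phosphorylate the ITAM, the kinase Syk docks on it, and phospholipase C gamma 2 and phosphoinositide 3-kinase act below. In macrophages Trem1 is known as an amplifier of inflammatory responses, whereas Trem2 is known as a receptor for lipids and lipoproteins that favours phagocytosis and survival.

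The motif that all 3 receptors use is shown first, since it is what sets Tyrobp apart from its neighbour Hcst. The DAP12 stretch covers coding bases 265 to 327 of 342 in transcript Tyrobp-201 (GENCODE M21, GRCm38 chr7:30415661-30417391, plus strand, with 1 intron inside), and the 2 codons in capitals are the ITAM tyrosines.
Tyrobp: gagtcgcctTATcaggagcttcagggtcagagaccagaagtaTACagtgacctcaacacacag
Hcst encodes DAP10, whose tail holds a single tyrosine that binds phosphoinositide 3-kinase. Its stretch covers coding bases 205 to 234 of 237 in transcript Hcst-201 (chr7:30417812-30417841, minus strand), with that 1 tyrosine codon in capitals.
Hcst: ggtagagtcTACatcaacatgcctggcaga

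Trem1, which passed the test below, and Trem2, which did not, lie in the same gene cluster, so the 250 bases before the RefSeq start of each are shown (GRCm38.p6, both on the plus strand). Capitals mark matches, on either strand, to GAGGAA, the core bound by the myeloid factor PU.1, or to TGANTCA. The latter is the AP-1 element with its middle base left free. The Trem1 window is chr17:48232489-48232738.
Trem1: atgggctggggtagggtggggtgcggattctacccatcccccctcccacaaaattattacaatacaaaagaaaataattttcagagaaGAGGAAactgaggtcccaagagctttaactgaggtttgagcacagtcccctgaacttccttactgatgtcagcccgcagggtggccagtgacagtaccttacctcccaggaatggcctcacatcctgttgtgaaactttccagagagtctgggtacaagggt
The Trem2 window is chr17:48346151-48346400.
Trem2: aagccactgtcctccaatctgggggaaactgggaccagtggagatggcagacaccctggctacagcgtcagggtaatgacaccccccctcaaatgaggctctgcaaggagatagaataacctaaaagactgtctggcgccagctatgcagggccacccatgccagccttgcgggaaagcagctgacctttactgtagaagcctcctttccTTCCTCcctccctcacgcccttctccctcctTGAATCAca
Counted back from the RefSeq start, GAGGAA began at -162 in Trem1, and its reverse complement TTCCTC began at -40 in Trem2. Trem2 also held TGAATCA at -9, a match that rests on the free middle base. Over all 32851 RefSeq windows of this length, GAGGAA was present on either strand in 23.3% and TGANTCA in 6.75%. An NF-kB motif (in 0.356% of windows), an E-box (CACGTG, in 6.02%) and a C/EBP motif (TTGCNNAA, in 9.56%) were searched likewise and had no match in these windows. The RefSeq table held 6 windows for 5 of the 7 genes. Of the windows not shown, that of Plcg2 held CACGTG at -20, 1 of the 2 Syk windows held GAGGAA at -9, and that of Hcst held no match. Trem3 and Tyrobp had no entry.

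Depth ranged from 15732268 to 18554691 reads on genes. Levels are in TPM, the reads per length of all annotated exons of a gene, scaled to a total that is the same in every library. Ncoa4 itself lay at 19.7, 22.5 and 22.4 TPM with control siRNA. With NCOA4 siRNA it lay at 9.63, 8.60 and 8.88 TPM, which was 41.9% of control. Control replicate 1 stood somewhat apart, since the SD of its log2 differences from the other control libraries was 0.271 and 0.273, against 0.223 between those and 0.192 to 0.222 among NCOA4 siRNA libraries. All 10 macrophage markers reached 1 TPM, with a summed level of 7606 to 7735 TPM with control siRNA and 8150 to 8292 TPM with NCOA4 siRNA. Of the 10, 5 passed the test defined below, which 5.42% of all tested genes passed. Most of the rise in this sum lay in Lyz2, whose mean was 4885 TPM in control and 5409 TPM in NCOA4-deficient cells. Lyz2 itself did not pass (limma adjusted p = 0.161). The sum therefore does not show a rise of macrophage markers in general, and the directions of the 5 are not given here. The part of this shift in the results below was not tested. Of 8 neutrophil markers only S100a8 reached 1 TPM and 5, among them Ly6g, S100a9 and Mpo, were listed at 0, and their sum was 19.0 to 25.4 TPM in control and 15.6 to 20.6 TPM in NCOA4-deficient cells. None of the 8 NK and T cell, 5 B cell and 5 fibroblast markers reached 1 TPM, whereas 4 of 6 osteoclast markers did (Ctsk, Ocstamp, Dcstamp and Mmp9), with sums of 736 to 802 TPM and 768 to 833 TPM, and 2 of the 6 passed the test. In bulk RNA, fewer cells of a type and less RNA per cell cannot be told apart.

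In all, 3 genes of the pathway rose in NCOA4-deficient cells, the receptors Trem1 and Trem3 and the kinase Syk, by 1.39-fold, 1.32-fold and 1.19-fold. Thus 3 of the 7 genes passed the test (limma on log2(TPM + 0.5), Benjamini-Hochberg adjusted p under 0.05), all higher, where 5.42% of all 13829 tested genes passed, 3.11% higher and 2.31% lower. None of the 7 also exceeded a fold change of 1.5, a rule that 1.18% of tested genes met. The libraries of the groups did not overlap for 5 of the 7 genes, 4 higher and 1 lower with NCOA4 siRNA, beside 28.4% of all tested genes. The median log2 fold change of the 7 genes was 0.20, and that of all tested genes 0.03.

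**Figure D1:**
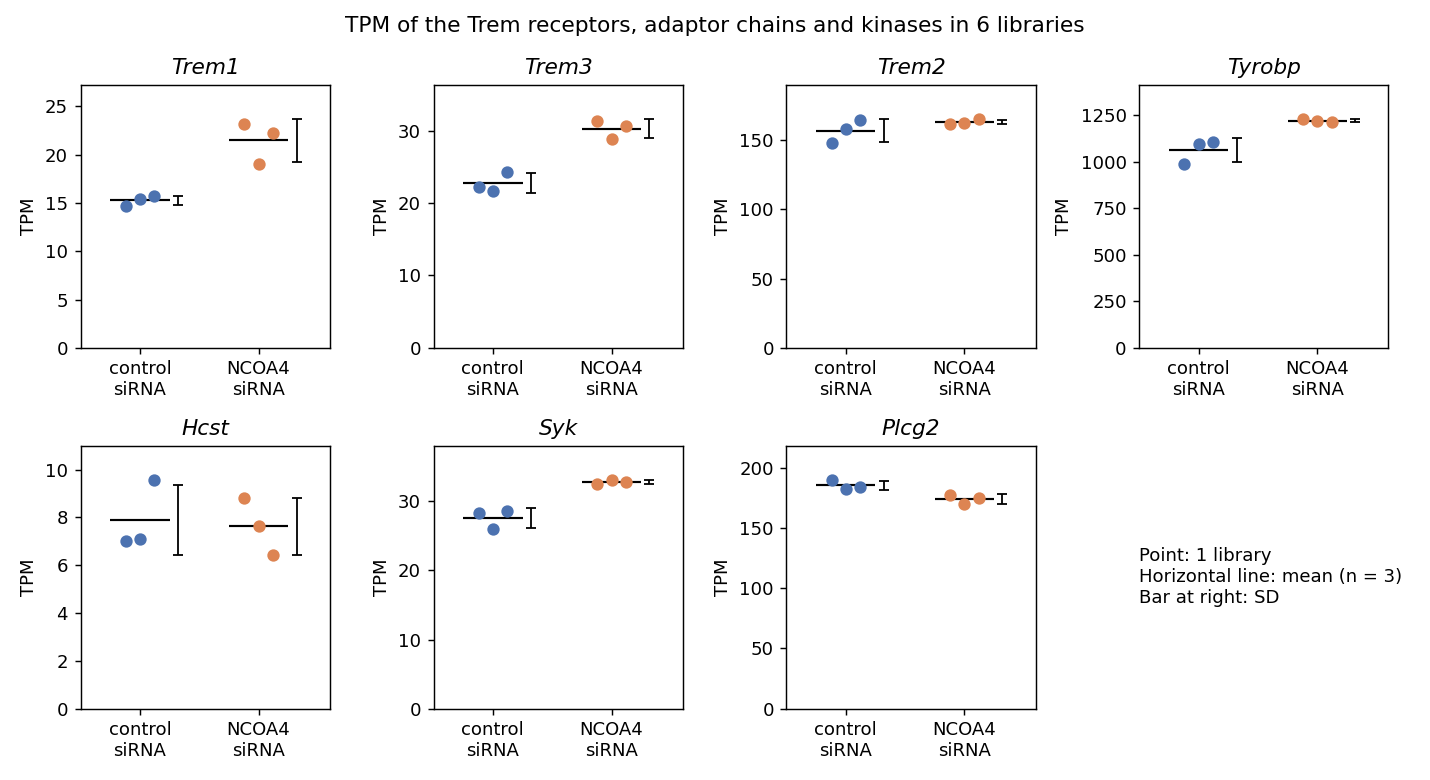
Transcript abundance in TPM (vertical axes, each from 0) of the 7 genes in every library, with a point for each library, a line for the group mean and a bar for the SD (n = 3). The control and NCOA4 siRNA points are apart for Trem1, Trem3, Tyrobp, Syk and Plcg2, and overlap for Trem2 and Hcst.

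The order of transcript levels was the same in both groups. Tyrobp was the most abundant at 1062 ± 66.3 TPM (SD, n = 3) in control cells, above 99.2% of tested genes. It was followed by Plcg2, Trem2, Syk, Trem3, Trem1 and Hcst, and no neighbours in this order overlapped in either group. The closest neighbours with NCOA4 siRNA were Plcg2 and Trem2, at a ratio of 1.07, and Syk and Trem3, at 1.08. Tyrobp stood 5.72-fold above Plcg2 in control cells and 6.99-fold with NCOA4 siRNA, and its TPM was above that of every receptor. In control libraries reads numbered 3777, 4420 and 3850 on Tyrobp and 4197, 4736 and 4234 on Trem2. The gap between these genes thus rests on the exon lengths that TPM divides by, 667 bases for Tyrobp and 4946 for Trem2. Which annotated exons the cells use was not tested, which limits the order and shares between genes. Trem2 made up 80.5% ± 0.482 (SD, n = 3) of the summed TPM of Trem1, Trem2 and Trem3 in control cells.

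Among the receptors, Trem1 (ENSMUSG00000042265, GRCm38 chr17:48232768-48246924, plus strand) lay at 14.7, 15.4 and 15.7 TPM with control siRNA and at 23.2, 19.0 and 22.3 TPM with NCOA4 siRNA. These values stood on 253, 280 and 245 reads and on 403, 310 and 403 reads. Every NCOA4 siRNA library lay above every control library, and the lowest of the 3, replicate 2, was still clear of the control range. The log2 fold change was 0.47 (SE 0.083, 95% interval 0.28 to 0.67), with a limma adjusted p of 0.0248. The exact permutation p was 0.1, the smallest that 3 libraries against 3 allow. The call rested on most libraries being present. Without control replicates 1, 2 and 3 the adjusted p was 0.0519, 0.063 and 0.0655, and without NCOA4 siRNA replicates 1 and 3 it was 0.105 and 0.111, whereas without NCOA4 siRNA replicate 2 it was 0.0343. The fold change stayed between 0.42 and 0.56 on the log2 scale in these 6 fits. Over all 16 alternative fits, these 6 included, the adjusted p was under 0.05 in 9.

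Trem3 (ENSMUSG00000041754, chr17:48247777-48258841, plus strand), a mouse receptor of the same activating type, lay at 22.2, 21.7 and 24.3 TPM in control cells and 31.4, 28.8 and 30.7 TPM in NCOA4-deficient cells. Reads numbered 127, 131 and 126 against 181, 156 and 184. The groups were well apart, with a spread within either group of 1.36 and 1.32 TPM (SD). Trem3 rose by 0.40 on the log2 scale (SE 0.062, 95% interval 0.26 to 0.55, limma adjusted p = 0.0177). The adjusted p was 0.0872, 0.0623 and 0.0866 without NCOA4 siRNA replicates 1, 2 and 3, and stayed under 0.05 without any 1 control library. It was under 0.05 in 12 of all 16 alternative fits, these included.

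Trem2 (ENSMUSG00000023992, chr17:48346401-48354147, plus strand) lay at 148, 158 and 164 TPM with control siRNA and at 162, 162 and 165 TPM with NCOA4 siRNA, on 4197 to 4921 reads per library. The groups overlapped, and control replicate 1 was the lowest of the 6. The log2 fold change of 0.06 did not pass the test (SE 0.047, 95% interval -0.05 to 0.17, limma adjusted p = 0.526), and its sign turned to a value of -2.08e-05 when libraries were centred on their medians.

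The receptors were next set against one another within each library. Trem1 TPM per 100 Trem2 TPM was 9.95, 9.76 and 9.55 in control libraries and 14.3, 11.7 and 13.5 in NCOA4 siRNA libraries. Trem3 TPM per 100 Trem2 TPM was 15.1, 13.8 and 14.8 against 19.4, 17.7 and 18.6. Both ratios were higher in all 3 NCOA4 siRNA libraries, each with an exact permutation p of 0.1, the smallest possible. Of the summed Trem TPM, Trem1 made up 7.85% ± 0.147 in control and 10.00% ± 0.868 in NCOA4-deficient cells, Trem3 11.7% ± 0.486 and 14.1% ± 0.405, and Trem2 80.5% ± 0.482 and 75.9% ± 1.26 (SD, n = 3), without overlap between groups and again at an exact p of 0.1. The sum itself was 195 ± 9.74 TPM in control and 215 ± 3.98 TPM in NCOA4-deficient cells. These ratios and shares reuse the receptor TPM given above and were chosen after their values were seen, so they are not further tests.

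**Figure D2:**
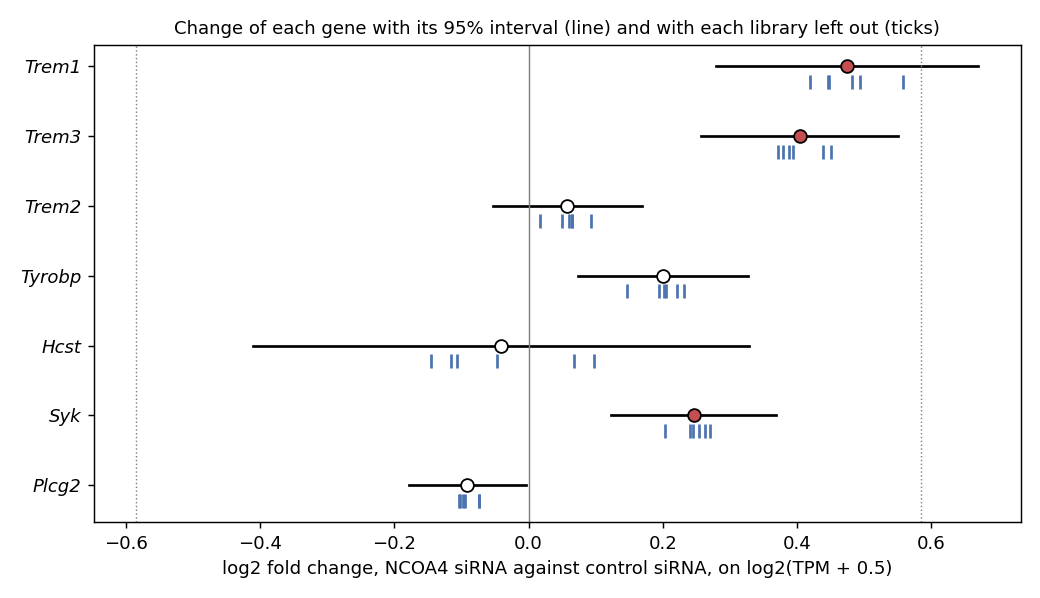
Log2 fold change of the 7 genes with its 95% interval (horizontal axis, NCOA4 siRNA against control siRNA on the log2(TPM + 0.5) scale), with genes that passed the test filled. Blue ticks give the value with each library left out, and dotted lines mark a fold change of 1.5. The intervals of Trem1 (0.28 to 0.67), Trem3 (0.26 to 0.55), Syk (0.12 to 0.37) and Tyrobp (0.07 to 0.33) lie above 0. That of Plcg2 (-0.18 to -0.004) lies below 0, and those of Trem2 and Hcst cross it. The intervals are not adjusted for the number of genes tested, and Tyrobp and Plcg2 did not pass.

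Tyrobp (ENSMUSG00000030579, chr7:30413760-30417585, plus strand) lay at 986, 1093 and 1107 TPM in control cells and at 1228, 1217 and 1212 TPM in NCOA4-deficient cells. All NCOA4 siRNA libraries lay above all control libraries, with control replicate 1 lowest. The log2 fold change of 0.20 did not pass the test (SE 0.053, 95% interval 0.07 to 0.33, limma adjusted p = 0.0858). Without control replicate 1 the adjusted p was 0.0263, and limma-voom on whole reads rebuilt from the TPM gave 0.011. Fcer1g, the other ITAM chain of macrophages, which serves Fc receptors, lay at 753 ± 28.7 and 753 ± 30.3 TPM (SD, n = 3), with a log2 fold change of 0.0012 (limma adjusted p = 0.993). Tyrobp TPM per Fcer1g TPM was accordingly 1.41 ± 0.107 in control and 1.62 ± 0.0737 in NCOA4 siRNA libraries, with an exact permutation p of 0.1. Fcer1g and this ratio were chosen after their values were seen.

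Hcst (ENSMUSG00000064109, chr7:30417712-30419854, minus strand) ends 126 bases from the end of Tyrobp on the opposite strand and was the least abundant of the 7. It lay at 6.99, 7.08 and 9.56 TPM in control cells and at 8.82, 7.63 and 6.43 TPM in NCOA4-deficient cells, on 28 to 37 reads per library. The groups overlapped throughout. The log2 fold change was -0.04 (SE 0.156, 95% interval -0.41 to 0.33, limma adjusted p = 0.906), and its sign turned without control replicate 3 (0.097) or NCOA4 siRNA replicate 3 (0.068), so no direction was detectable at this depth. The nearest protein-coding gene on the Hcst side, Nfkbid, lay at 29.6 ± 0.944 and 33.4 ± 1.51 TPM (SD, n = 3, limma adjusted p = 0.127).

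The level of each receptor was also set beside that of the adaptor it needs. Trem2 TPM per 100 Tyrobp TPM was 14.99, 14.4 and 14.8 in control libraries and 13.2, 13.4 and 13.6 in NCOA4 siRNA libraries. All 3 NCOA4 siRNA values lay below the control values, with an exact permutation p of 0.1, the smallest possible. The difference of means was -1.38, and leaving out 1 library at a time gave -1.54 to -1.27. For Trem1 the values with NCOA4 siRNA were the higher ones, at 1.76 ± 0.176 against 1.44 ± 0.045 in control, and likewise for Trem3, at 2.48 ± 0.101 against 2.15 ± 0.14 (SD, n = 3), both without overlap and at an exact p of 0.1. The summed receptors per 100 Tyrobp TPM were 18.3 ± 0.451 and 17.6 ± 0.348 and overlapped between groups (exact permutation p = 0.2). All these ratios reuse the TPM given above, and those other than Trem2 per Tyrobp were chosen after their values were seen.

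**Figure D3:**
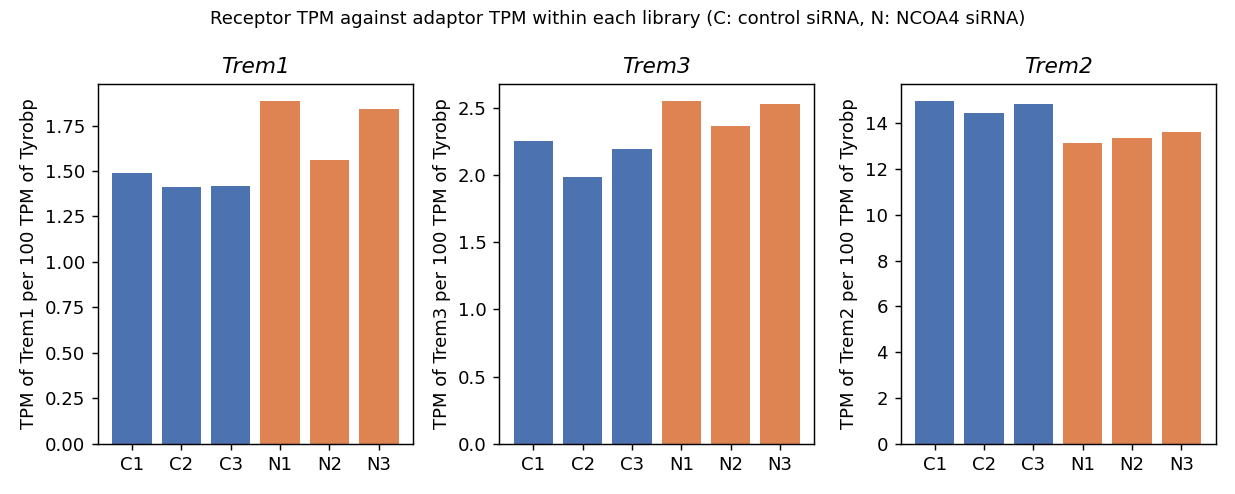
TPM of Trem1, Trem3 and Trem2 per 100 Tyrobp TPM (vertical axes, each from 0), with a bar for each library, blue for control siRNA (C) and orange for NCOA4 siRNA (N). The NCOA4 siRNA bars of Trem2 are lower, at 13.2 to 13.6 against 14.4 to 14.99, and those of Trem1 and Trem3 are higher than all control bars.

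Syk (ENSMUSG00000021457, chr13:52583173-52648792, plus strand), the tyrosine kinase recruited to the ITAM, lay at 28.3, 26.0 and 28.5 TPM with control siRNA and at 32.5, 33.1 and 32.8 TPM with NCOA4 siRNA. The NCOA4 siRNA libraries were all higher and nearly equal. Syk rose by 0.25 on the log2 scale (SE 0.052, 95% interval 0.12 to 0.37, limma adjusted p = 0.0439). This call was close to the threshold. It was lost on leaving out any 1 library, with an adjusted p of 0.0507, 0.0716 and 0.0741 without control replicates 1, 2 and 3 and of 0.148, 0.169 and 0.154 without NCOA4 siRNA replicates 1, 2 and 3. Median centring gave 0.12 and quantile normalization 0.0976. Over all 16 alternative fits, these included, the adjusted p was under 0.05 in 4.

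Plcg2 (ENSMUSG00000034330, chr8:117498291-117635142, plus strand), the phospholipase that releases calcium below Syk, lay at 190, 183 and 184 TPM in control cells and at 178, 170 and 175 TPM in NCOA4-deficient cells. It was the only 1 of the 7 whose NCOA4 siRNA libraries all lay below control. The log2 fold change of -0.09 did not pass the test (SE 0.037, 95% interval -0.18 to -0.004, limma adjusted p = 0.217). No exon of the 7 genes overlapped an exon of another gene, and no stretch of 50 bases of their transcripts was shared with another gene.

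Trem1, Trem3 and Trem2 belong to a cluster of Trem and Trem-like genes on the plus strand of chromosome 17 that spans 134 kb from Trem1 to Treml1. Of its other genes, Treml4, which encodes a DAP12-coupled Trem-like receptor and starts 31.5 kb from the start of Trem1, rose from 1.40, 1.07 and 0.864 TPM to 2.07, 3.40 and 3.49 TPM. This was a log2 fold change of 1.10 (SE 0.231, limma adjusted p = 0.0445), but on only 16, 13 and 9 reads against 24, 37 and 42. The adjusted p was above 0.05 on leaving out any library other than control replicate 1, and reached 0.169. Treml2, at 45.2 ± 1.83 and 49.2 ± 1.06 TPM, did not pass (adjusted p = 0.193), nor did Treml1, at 4.6, 2.47 and 2.33 against 3.56, 4.19 and 3.66 TPM, the immunoglobulin-like gene B430306N03Rik (adjusted p = 0.787) or Nfya, the next gene beyond the cluster (adjusted p = 0.347). The genes that passed in the cluster were therefore the 2 at its Trem1 end and Treml4 beside them.

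**Figure D4:**
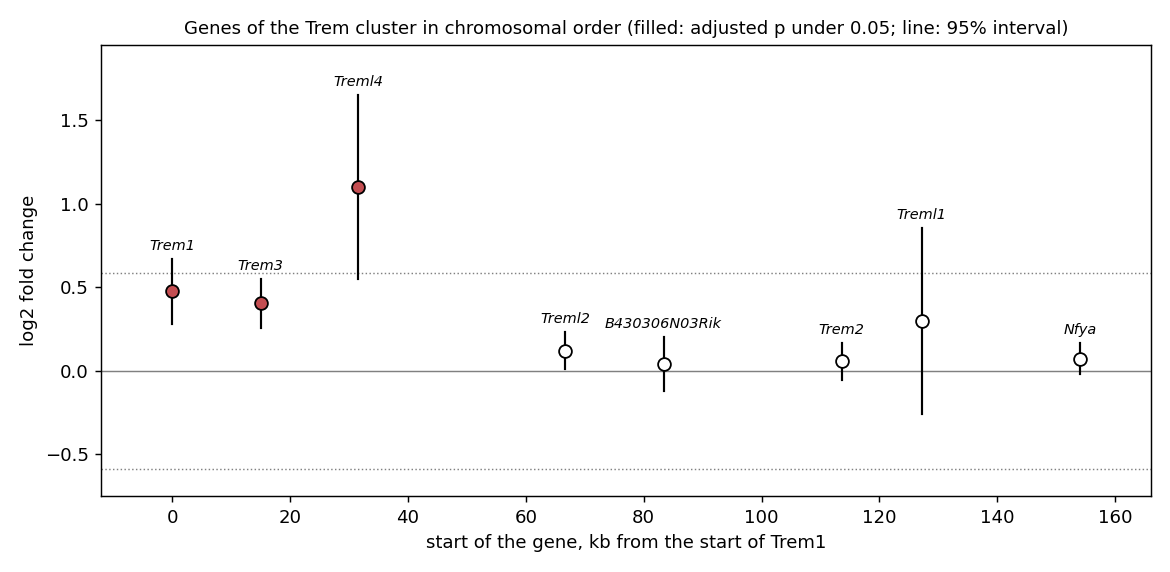
Log2 fold change with 95% interval (vertical axis, NCOA4 siRNA against control siRNA) of genes of the Trem cluster against distance in kb of each gene's start from that of Trem1 (horizontal axis). Trem1, Trem3 and Treml4, within 31.5 kb, passed the test (filled), and the genes from 66.7 kb onwards did not. Dotted lines mark a fold change of 1.5.

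The genes whose levels were most like each receptor over the 6 libraries, among 10037 genes of at least 5 TPM, are given as a description, since the points share the same libraries. For Trem1 they were A930015D03Rik, Lacc1 and Ppp1r12b (Pearson r = 0.990 each). For Trem3 they were Pbxip1 (0.998), P2rx4 (0.997) and Abl1 (0.996). For Trem2 they were Rps20 (0.996), Utp23 (0.996) and Ptpa (0.992).

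Beyond the 7 genes, 100 genes of the wider pathway were followed in 7 lists, of which 79 were tested. Of these, 25 passed (31.6%, against 5.42% of all tested genes), 12 higher and 13 lower, and 7 also exceeded a fold change of 1.5. The lists too were chosen with earlier results of these data known, so this share is a description. All 25 passed without control replicate 1, but 14 and 11 of them without control replicates 2 and 3, and 7, 5 and 4 without NCOA4 siRNA replicates 1, 2 and 3. Pilrb1, Clec7a, Cd86 and Ccl3 passed in all 6 of these fits.

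The list of DAP12-coupled and Trem-like receptors held the 3 largest log2 fold changes of these lists. Coupling of each of its genes to DAP12 was not tested. Pilrb1, an activating paired immunoglobulin-like receptor, rose from 2.58, 2.36 and 3.43 TPM to 8.89, 9.85 and 9.48 TPM (log2 fold change 1.6, SE 0.135, limma adjusted p = 0.00234). Its neighbour Pilrb2 rose from 1.45 ± 0.532 to 5.02 ± 1.01 TPM (SD, n = 3, adjusted p = 0.02). However, 30.1% of the 50-base stretches of Pilrb1 also occur in another gene, chiefly Pilrb2. Their values may therefore be neither independent nor complete, which was not tested. With control siRNA, Pilrb1 stood on only 29, 28 and 35 reads and Pilrb2 on 17, 23 and 9. Cd300ld, a further receptor of the list, rose from 19.8 ± 1.26 to 27.0 ± 2.09 TPM (adjusted p = 0.0248). Clec5a, a lectin receptor that signals through DAP12, fell from 81.6 ± 4.69 to 66.3 ± 0.543 TPM (adjusted p = 0.0232). In all, 5 of the 11 tested receptors of this list passed, 4 higher and 1 lower, beside 5.42% of all tested genes. The median of the 11 log2 fold changes was 0.17.

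Of 24 tested scaffolds and effectors, 6 passed, 4 higher and 2 lower, beside 5.42% of all tested genes. None of the 6 changed beyond 1.5-fold, and 18 did not pass. The median of the 24 log2 fold changes was 0.03. Prkcd, a protein kinase C that acts between Syk and Card9, rose from 93.3 ± 3.03 to 118.5 ± 4.0 TPM (SD, n = 3, log2 fold change 0.34, limma adjusted p = 0.00968). Card9, the adaptor it phosphorylates, rose by 0.25 (adjusted p = 0.0451), Pik3r1, a phosphoinositide 3-kinase subunit, by 0.26 (adjusted p = 0.033) and its adaptor Pik3ap1 by 0.19 (adjusted p = 0.0438). The adaptors Grb2 and Lat2 fell by 0.25 and 0.20 on the log2 scale (adjusted p = 0.0248 and 0.0343).

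Of 9 tested negative regulators, 2 passed, 1 in each direction, beside 5.42% of all tested genes. Lilrb4a, an inhibitory receptor, fell from 71.1 ± 5.01 to 51.9 ± 3.21 TPM (SD, n = 3, log2 fold change -0.45, limma adjusted p = 0.018), and 46.7% of its 50-base stretches occur in other genes, chiefly Gm49339. Inpp5d, which encodes the phosphatase SHIP1 that opposes DAP12 signals, rose by 0.20 (adjusted p = 0.0434). Of 6 tested ligands and sheddases only Lgals3, a galectin that binds Trem2, passed, and it fell by 0.24 on the log2 scale (adjusted p = 0.0286). Apoe, a lipoprotein ligand of Trem2, lay at 473, 375 and 464 TPM in control and 574, 565 and 574 TPM in NCOA4-deficient cells, apart but just short of the threshold (adjusted p = 0.0535). The sheddase genes Adam10 and Adam17 did not pass.

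Genes listed for their association with Trem2 in microglia mostly fell where they passed, 5 lower and 1 higher of 12 tested. Of all tested genes, 2.31% passed lower and 3.11% higher. Their median log2 fold change was -0.13. Whether each of them depends on Trem2 was not tested. Spp1, which encodes osteopontin, fell from 5445 ± 638.5 to 3668 ± 59.3 TPM (SD, n = 3, log2 fold change -0.56, limma adjusted p = 0.0187). Lpl (lipoprotein lipase, adjusted p = 0.00965), the cathepsins Ctsl (adjusted p = 0.00751) and Ctsb (adjusted p = 0.0337) and the tetraspanin gene Cd9 (adjusted p = 0.0262) also fell. Clec7a, the beta-glucan receptor dectin-1, rose from 18.2, 15.9 and 16.7 TPM to 34.2, 32.6 and 36.2 TPM, a log2 fold change of 1.00 (SE 0.0677, adjusted p = 0.00135).

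Of 11 tested genes known to be induced by Trem1 signalling, 4 passed, 1 higher and 3 lower, beside 5.42% of all tested genes. Cd86, which encodes a co-stimulatory molecule, rose from 18.6, 20.7 and 20.4 TPM to 34.2, 32.8 and 33.7 TPM (log2 fold change 0.74, SE 0.0559, limma adjusted p = 0.00216). The chemokine gene Ccl3 fell from 1510, 1278 and 1256 TPM to 719, 739 and 635 TPM (log2 fold change -0.95, SE 0.0893, adjusted p = 0.00391). Ccl2 fell by 0.50 (adjusted p = 0.0143) and Ccl7 by 0.36 (adjusted p = 0.0473). The chemokine gene Cxcl2 (adjusted p = 0.665) and the co-stimulatory genes Cd83 (adjusted p = 0.15) and Cd40 (adjusted p = 0.492) did not pass. Cd83 lay at 1.65 and 2.86 TPM on average, with all NCOA4 siRNA libraries above control. Il1b, at 2.63 and 4.80 TPM on average and on only 21 to 62 reads per library, did not pass either, with all NCOA4 siRNA libraries above control. Nor did Tnf, at 94.9 and 84.5 TPM, with all NCOA4 siRNA libraries below control. The groups did not overlap for 9 of the 11 genes, 5 higher and 4 lower with NCOA4 siRNA, beside 28.4% of all tested genes.

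**Figure D5:**
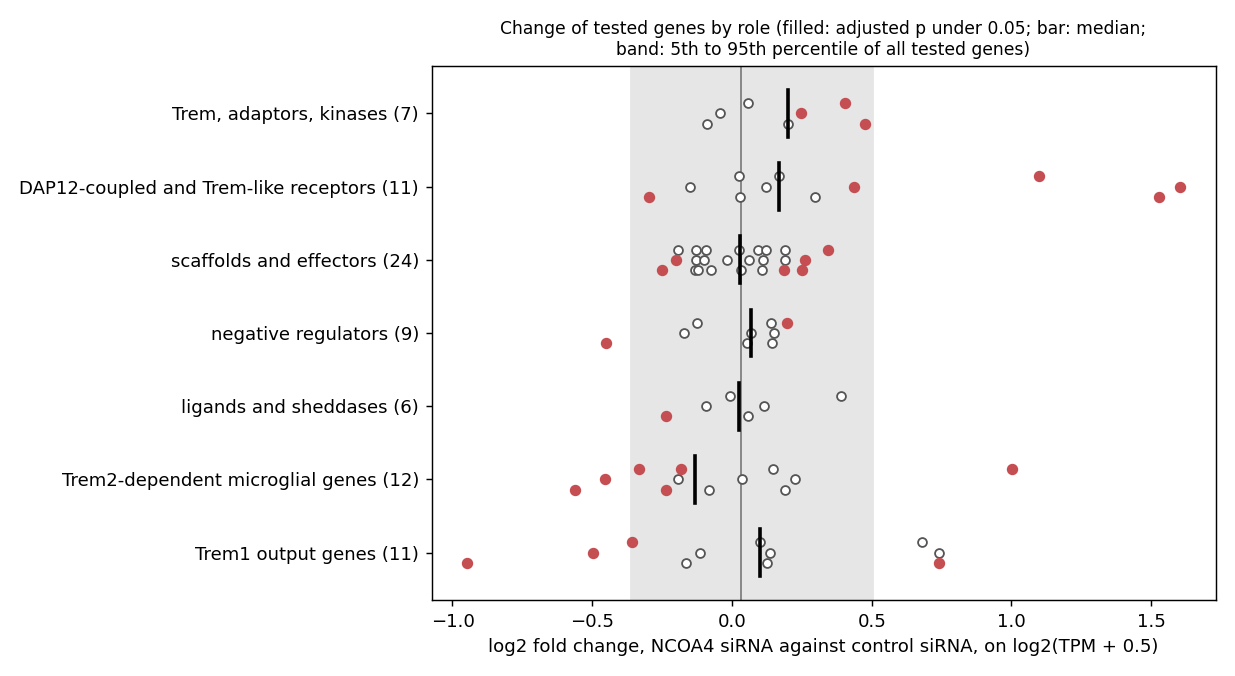
Log2 fold change (horizontal axis) of the tested genes of 7 rows, the 7 genes of the pathway and 6 of the lists, with a point for each gene, filled where the adjusted p was under 0.05, a bar for the median of each row and a grey band from the 5th to the 95th percentile of all tested genes (-0.36 to 0.50). The Trem row has its 3 filled points between 0.25 and 0.47, and the largest values belong to Pilrb1 and Pilrb2 at the right and Ccl3 at the left.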

How the data were processed

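RNA-seq of 6 J774 libraries was analysed, 3 with control siRNA and 3 with NCOA4 siRNA, grouped by their labels. The authors deposited TPM per gene, with no scaling between libraries. The submitters' processing notes name Trimmomatic 0.33, FastQC, HISAT2 2.1.0, featureCounts, edgeR and the build mm10, and the annotation and strand setting of the counting are not given in the sources used here. TPM fixes each library's total, so a change in a few abundant genes shifts all others.

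The 13829 genes whose TPM averaged 0.5 or more were compared with limma 3.58.1 (R 4.3.3) on log2(TPM + 0.5), with lmFit, eBayes with a trend and Benjamini-Hochberg adjustment over all of them. This scale understates the change of low genes. The authors tested their raw counts, and as TPM are no counts limma took the place of a count test here. Single values and ratios were compared with an exact two-sided permutation test over the 20 arrangements of the libraries. Reads were recovered as whole numbers with GENCODE M21 exon lengths (20745 of the 21096 genes above 0, whole within 0.02 reads) or a length chosen to give whole reads (348 genes, no check of the method), as a measure of depth and for limma-voom. On a gene of 1 kb, 1 read was worth 0.165 to 0.192 TPM. The test was tried on simulated data.

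The 7 genes, the pathway lists and the markers were chosen with earlier results of these data known. Named are the 7 genes, Ncoa4, up to 6 genes per list with the smallest adjusted p under 0.05, protein-coding genes in the Trem cluster and beside it and beside Tyrobp and Hcst, and the 3 genes most like each Trem receptor. Fcer1g, Apoe, Adam10, Adam17, Il1b, Tnf, Cxcl2, Cd83, Cd40 and every ratio other than Trem2 per Tyrobp were chosen after their values were seen. A result that this rule selects, and the list it stands in, are not reported here singly. Promoter windows are RefSeq's. The counts of passing genes and the change of each gene named by the rule were recomputed with other pseudocounts (1 and 0.1), with no filter or one at 5 TPM, after centring on medians, quantile normalization or removing mitochondrial genes, with eBayes lacking the trend, with limma-voom, with a replicate block and without each library. Trem2 per Tyrobp was recomputed only without each library, and the other ratios and the genes chosen after their values were seen were not recomputed singly.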

Additional observations from a re-analysis of the deposited data

How the results depend on the processing

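Of the 7 genes, 3 passed in the main test, 4 with limma-voom, 1 with eBayes without a trend and 0 to 2 with 1 library left out. None both passed and exceeded 1.5-fold in any of the 16 alternatives. Of the pathway list genes, 25 passed, against 12 without a trend and 4 to 29 with 1 library left out. Those also beyond 1.5-fold numbered 7, and 4 to 8 with 1 library left out. With 1 library left out, Trem2 per 100 Tyrobp TPM differed by -1.54 to -1.27. With the replicate number as a block, 0 of the 7 genes and 6 list genes passed, 4 of them beyond 1.5-fold, and calls over all genes went from 750 to 161. The deviations of same-numbered libraries correlated at 0.028, -0.019 and 0.023, and those of differently numbered libraries at -0.041 to 0.020. With 3 libraries per group, these values cannot tell whether the numbers pair the libraries. Signs turned for Trem2 under median centring (-2.08e-05), for Hcst without control replicate 3 (0.097) or NCOA4 siRNA replicate 3 (0.068), with -0.146 to 0.097 over the fits with 1 library left out, and for B430306N03Rik under median centring (-0.019), quantile normalization (-0.0088) and without NCOA4 siRNA replicate 2 (-0.011), with -0.011 to 0.079 over the fits with 1 library left out. The share of higher genes among all calls was 57.3%, 35.9% after median centring and 49.2% after quantile normalization, and calls numbered 404 without a trend and 1494 with limma-voom. The causes were not tested. Depth limits Hcst, Treml1, Treml4 and Cd83, which had under 50 reads in every library.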
